A study of Homo sapiens with 10 samples.

Results

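The genes described here are the FOXO transcription factors and the proteins that carry the insulin signal to them: INSR, IGF1R, IRS1, IRS2, PIK3R1, AKT1, FOXO1, FOXO3, FOXO4 and PDK4. These 10 genes were taken by symbol from the 28380 genes of the count table. Of them, 9 passed the filter on low counts and were tested among 13378 genes, and PDK4 did not pass.

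RPE-1 cells, an untransformed human retinal pigment epithelial line immortalized with telomerase, were kept in complete medium and given the vehicle DMSO or 25 µM sulforaphane (SFN) for 4 h. SFN, a reactive compound released when broccoli and related plants are chewed, is known to activate the transcription factor NRF2. There were 5 DMSO and 5 SFN libraries, made from the 3′ ends of mRNA, and the question was how SFN alters the expression of genes of the nutrient response. All 10 libraries come from a single cell line, and the study calls its replicates independent only in general, without saying whether those sequenced were separate cultures. Its methods state that the RNA-seq analysis allowed for dependence between repeated measures but not which libraries that joined. Each p-value therefore measures the spread between these libraries, which may be technical.

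Insulin and IGF1 bind the receptor tyrosine kinases INSR and IGF1R, which phosphorylate the docking proteins IRS1 and IRS2. Phosphorylated IRS proteins recruit PI3K, whose lipid product activates the kinase AKT. AKT phosphorylates FOXO factors, which then leave the nucleus, so FOXO target genes are switched on when insulin signaling is low, as in fasting. FOXO activity is set largely by phosphorylation and location, neither of which an mRNA count measures.

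SFN lowered the mRNA of 5 of the 9 tested members: IRS1, FOXO1, PIK3R1, FOXO3 and INSR. Across all genes tested, 13.9% passed the same threshold in that direction (edgeR quasi-likelihood test, Benjamini-Hochberg adjusted p under 0.05). Without DMSO replicate 5, SFN replicate 3 or SFN replicate 4, only 3 members were called lower. No member passed this threshold upward, against 9.07% of all genes. At an unadjusted p under 0.05 (edgeR) the members called higher were also 0, but the share of all genes at that threshold is not given here. IRS2, FOXO4, IGF1R and AKT1 were not called. Without DMSO replicate 1, IRS2 was called higher, as were 22.5% of all genes. The members' median log2 fold change was -0.39, against -0.03 over all genes tested. The groups did not overlap for 4 members, against 19.9% of all genes.

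Total counts were 15689294 to 20666692 in the DMSO libraries and 12375860 to 17308706 in the SFN libraries. DMSO replicate 1 stood apart from the other control libraries: its mean Spearman correlation with them was 0.935, against 0.979 to 0.982 for the others, and its TMM scaling factor was 0.886. It had the lowest or highest DMSO value for 7 of the 9 tested members, and values without it are given beside those it moves by more than 1.5 times or whose call it changes. Its part in the results was not tested further. Of 10 retinal pigment epithelium markers, 9 had a row. Marker values are given over all libraries only. BEST1 was at 18.8 CPM in DMSO and 42.4 CPM in SFN, with a wide range of 97 to 1244 counts per library. OTX2 was at 14.04 CPM in DMSO and 9.01 CPM in SFN. RPE65 had at most 3 counts in any library, RLBP1 at most 4 and SERPINF1 at most 2. The pigment cell transcription factor gene MITF was at 50.8 CPM in DMSO and 23.4 CPM in SFN. The keratin gene KRT8 was at 383 CPM in DMSO and 449 CPM in SFN. Of 9 markers of other cell types, 3 had a row: the blood cell marker PTPRC had at most 6 counts, PECAM1 at most 9 and CDH5 at most 1.

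**Figure D1:**
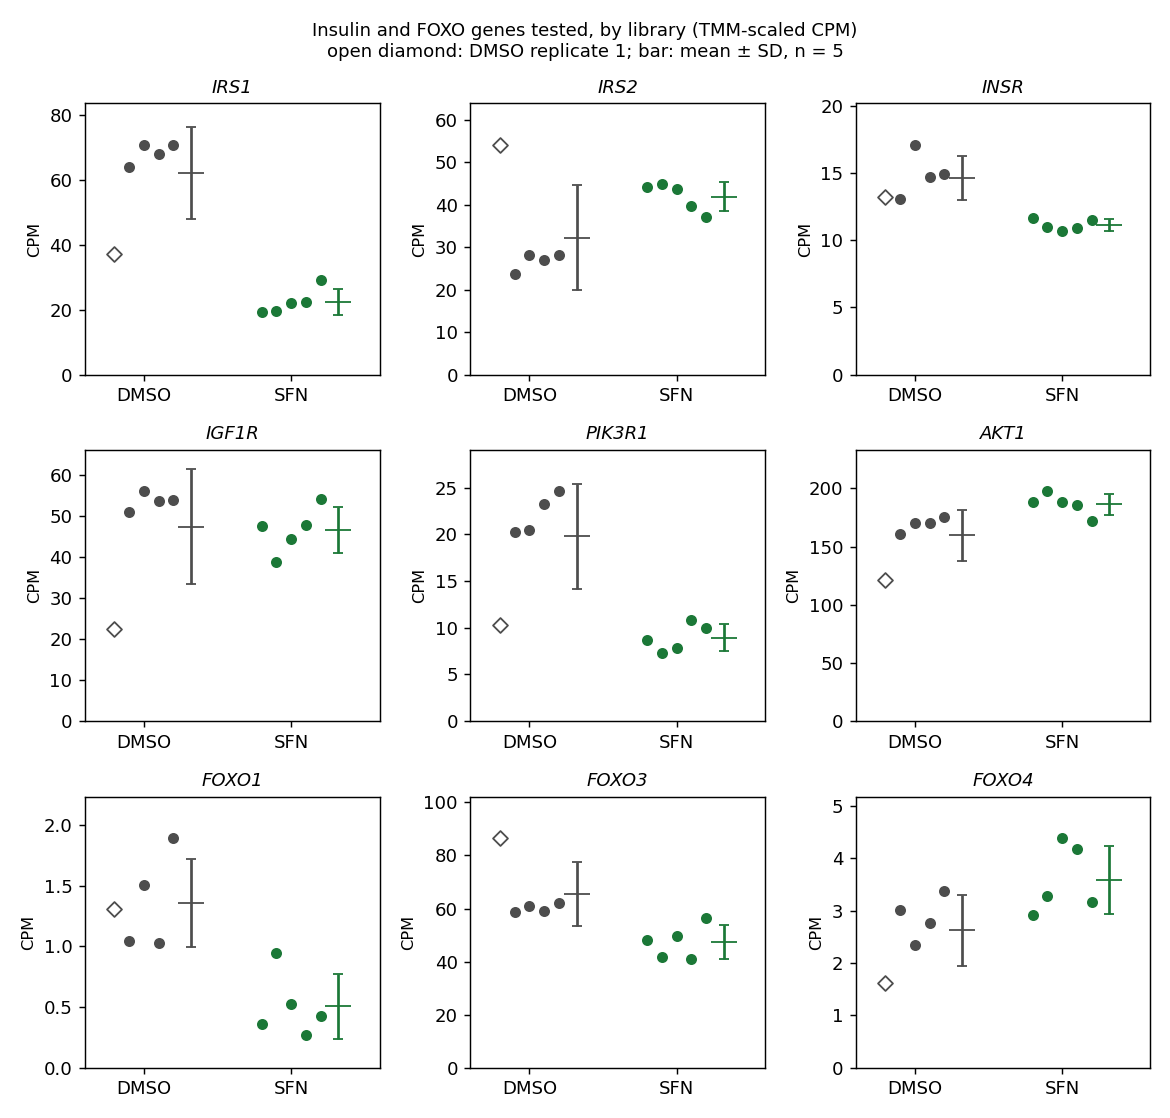
CPM of the 9 tested members in each DMSO and SFN library (open diamond, DMSO replicate 1), with the group mean and SD (n = 5 each). IRS1, FOXO1, FOXO3 and INSR do not overlap between groups, and DMSO replicate 1 lies far from the other DMSO libraries for IRS1, IRS2, IGF1R and FOXO3.

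The insulin receptor fell modestly and the IGF1 receptor was not called. Levels are given as CPM, the count scaled to the size of the library. INSR (chr19:7112255-7294414, minus strand, GRCh38) was at 13.2, 13.1, 17.1, 14.7 and 14.9 CPM in DMSO replicates 1 to 5. In SFN replicates 1 to 5 it was at 11.6, 11.0, 10.6, 10.9 and 11.5 CPM. Every SFN library lay below every DMSO library. The mean went from 14.6 ± 1.63 to 11.1 ± 0.415 CPM (SD, n = 5 each), a log2 fold change of -0.39 ± 0.11 (SE; edgeR adjusted p = 0.024). This call is fragile: without DMSO replicate 3, 4 or 5 or SFN replicate 3 or 4, the edgeR adjusted p was 0.0613, 0.0549, 0.0544, 0.0635 and 0.0638. It was also lost with quantile normalization (limma adjusted p = 0.164), with no low-count filter (edgeR adjusted p = 0.0992) and with the replicate block (edgeR adjusted p = 0.0831).

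IGF1R (chr15:98648539-98964530, plus strand) was at 22.5, 50.9, 56.0, 53.6 and 53.7 CPM in DMSO. In SFN it was at 47.6, 38.8, 44.4, 47.8 and 54.0 CPM. The groups overlapped, and the lowest value of all 10 was DMSO replicate 1. The log2 fold change was -0.03 with a 95% interval of -0.50 to 0.44 (edgeR adjusted p = 0.95), so neither direction was shown. Its sign turned under several alternatives, and without DMSO replicate 1 it was -0.21 ± 0.097 (edgeR adjusted p = 0.095).

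Of the docking proteins, IRS1, which carries much of the insulin and IGF1 signal in many cell types, fell by 63.8%, whereas IRS2 was not called over all libraries and was higher in SFN once DMSO replicate 1 was left out. IRS1 (chr2:226731312-226799820, minus strand) was at 37.1, 64.0, 70.6, 68.1 and 70.8 CPM in DMSO. With SFN it was at 19.4, 19.6, 21.9, 22.3 and 29.2 CPM. The groups did not overlap, although DMSO replicate 1 lay closest to SFN. The mean went from 62.1 ± 14.2 to 22.5 ± 3.97 CPM (SD, n = 5 each), a log2 fold change of -1.47 ± 0.19 (SE; edgeR adjusted p = 1.8e-04). IRS1 was called in all 17 alternatives, and without DMSO replicate 1 the log2 fold change was -1.61 ± 0.11.

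IRS2 (chr13:109752695-109786583, minus strand), itself a known FOXO target, was at 54.2, 23.7, 28.1, 27.0 and 28.2 CPM in DMSO. The SFN libraries had it at 44.1, 45.03, 43.9, 39.7 and 37.1 CPM. All SFN libraries were above DMSO replicates 2 to 5, and DMSO replicate 1 was above them all. The log2 fold change over all libraries was 0.38 ± 0.21, with a 95% interval of -0.07 to 0.83 (edgeR adjusted p = 0.22). Without DMSO replicate 1 the groups no longer overlapped and it was 0.64 ± 0.096 (edgeR adjusted p = 1.2e-04). Leaving that library out raised calls across the whole table: 46.1% of all genes were called, 23.5% lower and 22.5% higher, against 23.0% in either direction with all libraries. Of the members, 6 of 9 were then called, 5 lower and 1 higher. The groups did not overlap for 6 members, against 36.2% of all genes.

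The count ratio of IRS2 to IRS1 within a library needs no scaling between libraries. It shows a shift between libraries and not which of the genes has more transcripts. It was 1.46, 0.371, 0.397, 0.396 and 0.398 in DMSO replicates 1 to 5. In SFN it was 2.28, 2.30, 2.003, 1.78 and 1.27. Apart from DMSO replicate 1, which exceeded SFN replicate 5, each SFN ratio was above each DMSO ratio.

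Because IRS1 was called lower and IRS2 was not, the 250 bases before the start of each are shown, from RefSeq on GRCh38.p14 and read 5′ to 3′ on the minus strand. The IRS1 window is chr2:226799821-226800070 and the IRS2 window chr13:109786584-109786833. Capitals mark matches to the insulin response motif TGTTTTG and to the antioxidant response core TGACNNNGC, each searched on both strands.
IRS1: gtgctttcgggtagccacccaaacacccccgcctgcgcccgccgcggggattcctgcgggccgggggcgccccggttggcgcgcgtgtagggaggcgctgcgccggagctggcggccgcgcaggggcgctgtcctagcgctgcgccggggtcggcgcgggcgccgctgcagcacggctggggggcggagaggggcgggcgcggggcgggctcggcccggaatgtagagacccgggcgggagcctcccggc
IRS2: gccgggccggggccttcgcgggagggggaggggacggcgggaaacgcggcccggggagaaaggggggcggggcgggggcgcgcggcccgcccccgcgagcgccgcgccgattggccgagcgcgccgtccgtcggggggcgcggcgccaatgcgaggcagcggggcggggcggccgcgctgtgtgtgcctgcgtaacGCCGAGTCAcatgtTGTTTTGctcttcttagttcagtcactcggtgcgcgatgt
IRS2 held TGTTTTG from 40 to 34 bases before its start and the antioxidant core on the opposite strand from 54 to 46 bases before it. IRS1 held neither. The 10 members have 17 such windows, since some have several starts. Among the other members, FOXO3, which was called lower, held the antioxidant core at an alternative start inside the gene and not at its first starts, and none held TGTTTTG. No member window held the FOXO motif GTAAACA, which 2.98% of all windows held. The CARE core TGATGNAA was also searched, and 3.14% of all windows held it. Among the members only PIK3R1, which was called lower, held it, from 55 to 48 bases before a start inside the gene. Among 35116 such windows, 4.30% held TGTTTTG and 10.9% held TGACNNNGC. Both windows are rich in G and C (80.8% in IRS1 and 76.4% in IRS2), with 4 and 5 matches to the GC box GGGCGG, which 42.6% of windows held. A match is a description of letters and shows no binding.

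PIK3R1, a regulatory subunit of class I PI3K, fell by 54.7%. The gene (chr5:68215740-68301821, plus strand) was at 10.3, 20.3, 20.5, 23.3 and 24.6 CPM in DMSO. In SFN it was at 8.70, 7.33, 7.82, 10.9 and 10.03 CPM. Only DMSO replicate 1 overlapped with SFN. The mean went from 19.8 ± 5.60 to 8.95 ± 1.48 CPM (SD, n = 5 each), a log2 fold change of -1.14 ± 0.22 (SE; edgeR adjusted p = 0.0026), and without DMSO replicate 1 it was -1.31 ± 0.13.

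AKT1 (chr14:104769349-104795751, minus strand), the kinase that phosphorylates FOXO factors, was at 122, 161, 170, 170 and 176 CPM in DMSO. With SFN it was at 188, 198, 188, 186 and 172 CPM. Only SFN replicate 5 fell within the DMSO range. The log2 fold change was 0.22 ± 0.11 with a 95% interval of -0.03 to 0.47 (edgeR adjusted p = 0.20). Without DMSO replicate 1, its lowest value, it was 0.13 ± 0.073 (edgeR adjusted p = 0.15). An antisense RNA overlaps AKT1 with at most 117 counts, and whether counting used strand is not given in the sources used here.

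**Figure D2:**
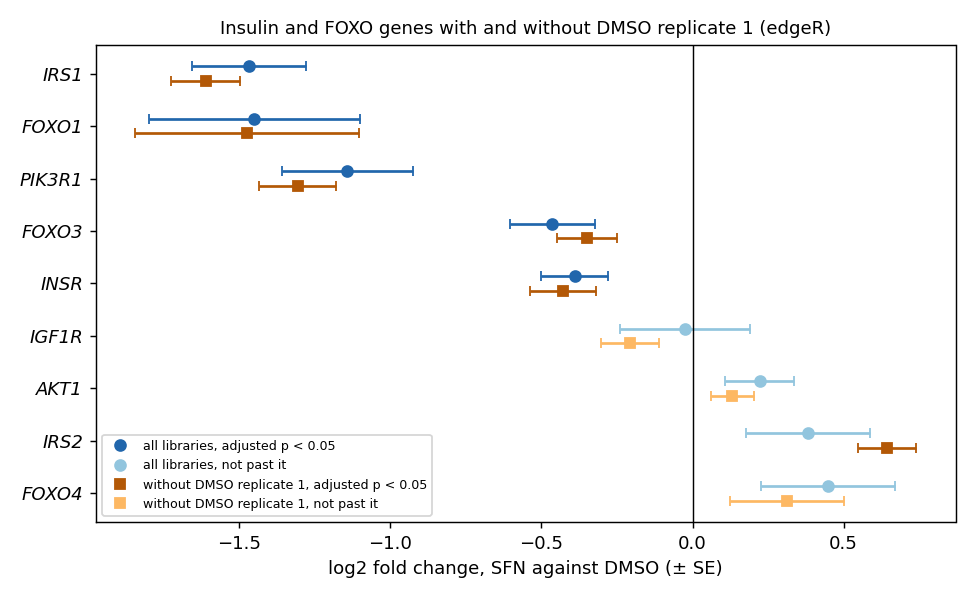
Log2 fold change (SFN against DMSO) of the 9 tested members with bars of 1 SE, over all libraries (circles) and without DMSO replicate 1 (squares), dark where the adjusted p was under 0.05. IRS1, FOXO1 and PIK3R1 lie below -1, and IRS2 is past the threshold only without DMSO replicate 1.

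Of the FOXO factors, FOXO1 and FOXO3 fell and FOXO4 was not called. FOXO1 (chr13:40555667-40666641, minus strand), the main mediator of insulin's effect on gene expression in liver, was at 1.31, 1.05, 1.51, 1.02 and 1.89 CPM in DMSO. The SFN libraries had it at 0.358, 0.949, 0.521, 0.270 and 0.424 CPM. The groups did not overlap, but these values rest on 17 to 32 counts per DMSO library and 4 to 11 per SFN library. The log2 fold change was -1.45 ± 0.35 (SE, n = 5 each; edgeR adjusted p = 0.011), with a 95% interval of -2.21 to -0.69. FOXO1 was called in all 17 alternatives.

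FOXO3 (chr6:108559835-108684774, plus strand), linked to stress resistance and autophagy, was at 86.6, 58.6, 60.9, 59.0 and 62.2 CPM in DMSO. In SFN it was at 48.2, 41.7, 49.6, 41.1 and 56.5 CPM. Every SFN library lay below every DMSO library, the highest of which was DMSO replicate 1. The mean went from 65.5 ± 11.9 to 47.4 ± 6.34 CPM, a log2 fold change of -0.46 ± 0.14 (SE, n = 5 each; edgeR adjusted p = 0.033). Without DMSO replicate 1 it was -0.35 ± 0.10 (edgeR adjusted p = 0.011). The call was lost without DMSO replicate 5 or SFN replicate 1, 2, 3 or 4, with edgeR adjusted p of 0.0529, 0.0691, 0.0721, 0.0632 and 0.0858. FOXO3B, a near-identical copy that could share reads, had at most 21 counts in any library.

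FOXO4 (chrX:71095851-71103532, plus strand) was at 1.62, 3.01, 2.35, 2.77 and 3.37 CPM in DMSO. With SFN it was at 2.92, 3.28, 4.39, 4.18 and 3.18 CPM. The groups overlapped, with a log2 fold change of 0.45 and a 95% interval of -0.03 to 0.93 (edgeR adjusted p = 0.18), and it was 0.31 ± 0.19 without DMSO replicate 1. In bulk RNA, fewer cells with a transcript and less of it per cell cannot be told apart.

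PDK4 (chr7:95583499-95596516, minus strand), the pyruvate dehydrogenase kinase that FOXO factors induce in fasting muscle and liver, was close to absent from the counts. It had 1 count in DMSO replicate 5 and 0 in the other 9 libraries. A count of 0 allows a level of up to 3 counts, or 0.137 to 0.259 CPM depending on the library. A fall in PDK4 was therefore not detectable at this depth, nor was a rise below this level in any single library. The level is per library and was not worked out for the SFN libraries together, where it would be lower. This limit covers counting error only.

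**Figure D3:**
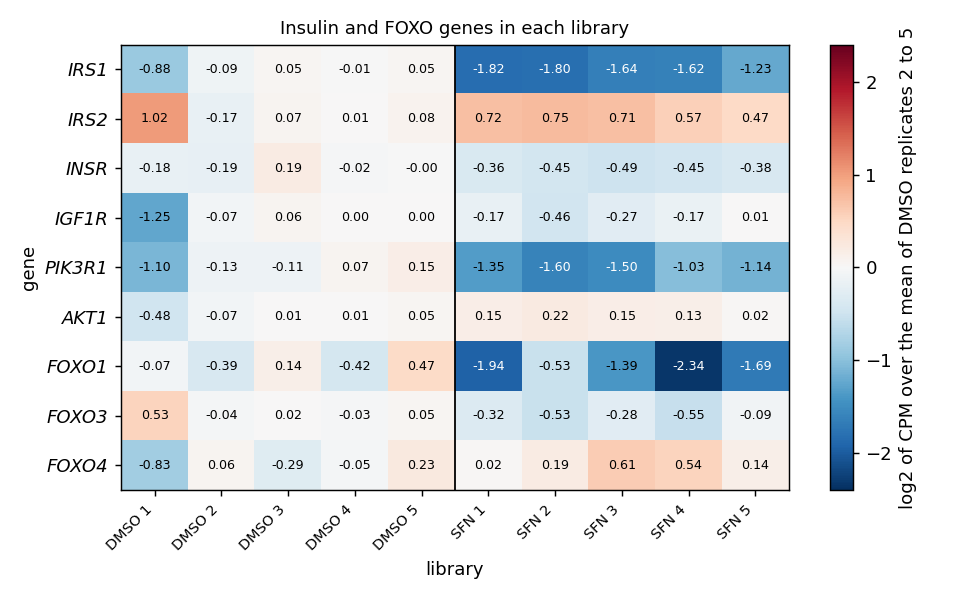
Log2 of the CPM of each tested member in each library over its mean in DMSO replicates 2 to 5, blue for lower and red for higher. DMSO replicate 1 lies on the SFN side for IRS1, IRS2 and PIK3R1, on the opposite side for FOXO3, FOXO4 and AKT1, and below every SFN library for IGF1R (-1.25).

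The other genes of the pathway were taken from 11 lists by role, 126 genes beside the members, of which 105 were tested. Of these 105, 11 rose and 18 fell, near the shares over all genes (9.07% higher and 13.9% lower). Without DMSO replicate 1, 25 rose and 28 fell, against 22.5% and 23.5% of all genes. The counts by list below are read against the same shares, and no list was tested against the other genes.

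Among 8 docking proteins tested, 4 fell and none rose (median log2 fold change -0.26): beside IRS1 these were DOK1 (-1.15 ± 0.29, SE; edgeR adjusted p = 0.013), GAB1 (-0.83 ± 0.27) and DOK4 (-0.59 ± 0.19). Of 8 PI3K subunits, which span several classes of the enzyme, 3 fell and none rose (median -0.28). They were PIK3R1, the related regulatory subunit PIK3R3 (12.6 ± 2.53 to 4.57 ± 1.11 CPM, edgeR adjusted p = 2.9e-04) and PIK3R4 (log2 fold change -0.53). PIK3R4 is a subunit of class III PI3K, not of class I. With DMSO replicate 1 left out, 6 PI3K subunits fell and 2 rose. Of the docking proteins, 1 rose and 4 fell without DMSO replicate 1. Their count went from 4 to 2 called without DMSO replicate 2, 3 or 4 or SFN replicate 1, 2 or 4. The catalytic subunit PIK3CA had a log2 fold change of 0.37 (edgeR adjusted p = 0.076). It was called in 4 of the 17 alternatives, among them those without DMSO replicate 1 (0.33, edgeR adjusted p = 0.0493) and without SFN replicate 2 (0.46, edgeR adjusted p = 0.0216). Of 7 ligands and binding proteins, IGFBP3, which binds IGF1 outside the cell, rose from 242 ± 8.24 to 321 ± 30.6 CPM (SD, n = 5 each; edgeR adjusted p = 0.010), and 2 of this list rose without DMSO replicate 1. Of 3 receptors only INSR was called, and IGF2R, with a log2 fold change of 0.04, turned sign without DMSO replicate 1 (-0.18).

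Among 11 inhibitors of the receptors and AKT, TRIB3, a pseudokinase that binds AKT, rose from 5.16 ± 1.22 to 39.1 ± 8.64 CPM (SD, n = 5 each), a log2 fold change of 2.92 ± 0.20 (SE; edgeR adjusted p = 1.8e-06). Its relatives TRIB1 and TRIB2 fell, by 0.60 and 0.58 on the log2 scale. Of these inhibitors 1 rose and 4 fell without DMSO replicate 1, and TRIB3 alone was called without DMSO replicate 2, 3 or 5 or SFN replicate 2, 3 or 4. Of 9 lipid and AKT phosphatases, PHLPP2, which dephosphorylates AKT, fell by 1.12 on the log2 scale (edgeR adjusted p = 0.0072). It was the only phosphatase called, whereas 1 rose and 3 fell without DMSO replicate 1.

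Of 10 AKT kinases and activators, the AKT-related kinase SGK1 fell (-0.67) and the mTORC2 subunit MAPKAP1 rose (0.42). The isoform AKT2 was not called, at 0.31 on the log2 scale (edgeR adjusted p = 0.30) and at 0.14 without DMSO replicate 1. Of 11 AKT substrates, FOXO1 and FOXO3 fell and AKT1S1, an mTORC1 inhibitor, rose from 37.8 ± 6.54 to 78.6 ± 0.884 CPM (SD, n = 5 each; edgeR adjusted p = 1.1e-04). Of 15 FOXO regulators, the ubiquitin ligase subunit SKP2 fell (-1.05 ± 0.12, SE) and the deacetylase SIRT2 rose (0.50 ± 0.13). Of these regulators, 5 rose and 2 fell without DMSO replicate 1.

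Genes known as FOXO targets went both ways. Of 27 tested, 6 rose, 6 fell and 15 were not called, with a median log2 fold change of 0.21 against -0.03 over all genes. Those that rose were CCNG2 (1.78 ± 0.13, SE), HBP1 (1.40), BCL6 (1.26), GADD45A (0.74, and 1.06 without DMSO replicate 1), GABARAPL1 (0.68) and CDKN1A (0.46). Those that fell were TXNIP (-3.88 ± 0.26), BCL2L11 (-1.44), FBXO32 (-1.09), CITED2 (-0.77), SESN1 (-0.75) and INSR (-0.39). CCNG2, a cyclin tied to growth arrest, went from 13.6 ± 1.79 to 46.8 ± 5.54 CPM (SD, n = 5 each), and TXNIP, which restrains glucose uptake, from 8.36 ± 1.78 to 0.555 ± 0.191 CPM. Without DMSO replicate 1, when 22.5% of all genes were called higher and 23.5% lower, 13 rose and 6 fell. The study attributed the fall of TXNIP in part to less of the transcription factor MondoA at its promoter. Whether FOXO factors moved any of these genes was not tested.

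In the pyruvate dehydrogenase list, where PDK4 belongs, 3 of 10 genes fell and none rose, and 4 fell and 1 rose without DMSO replicate 1. The 3 were the activating phosphatases PDP1 (102.8 ± 19.7 to 42.3 ± 10.3 CPM, SD, n = 5 each; edgeR adjusted p = 5.9e-04) and PDP2 (log2 fold change -1.20 ± 0.12, SE) and the regulator PDPR (-0.36). The kinases PDK1 and PDK2 were not called, at 0.10 and 0.08 on the log2 scale, and were at 0.05 and -0.02 without DMSO replicate 1.

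Some of these calls were near the threshold. Of the 17 alternatives, DOK4 was called in 9, GAB1 in 8, GADD45A in 8, GABARAPL1 in 8, TRIB1 in 7, PDPR in 6 and TRIB2 in 5. CDKN1A was called in 12, and lost its call without DMSO replicate 2 or 4 or SFN replicate 1, with the replicate block and with no filter. IGFBP3 and MAPKAP1 were called in 15 and SIRT2 in 16.

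**Figure D4:**
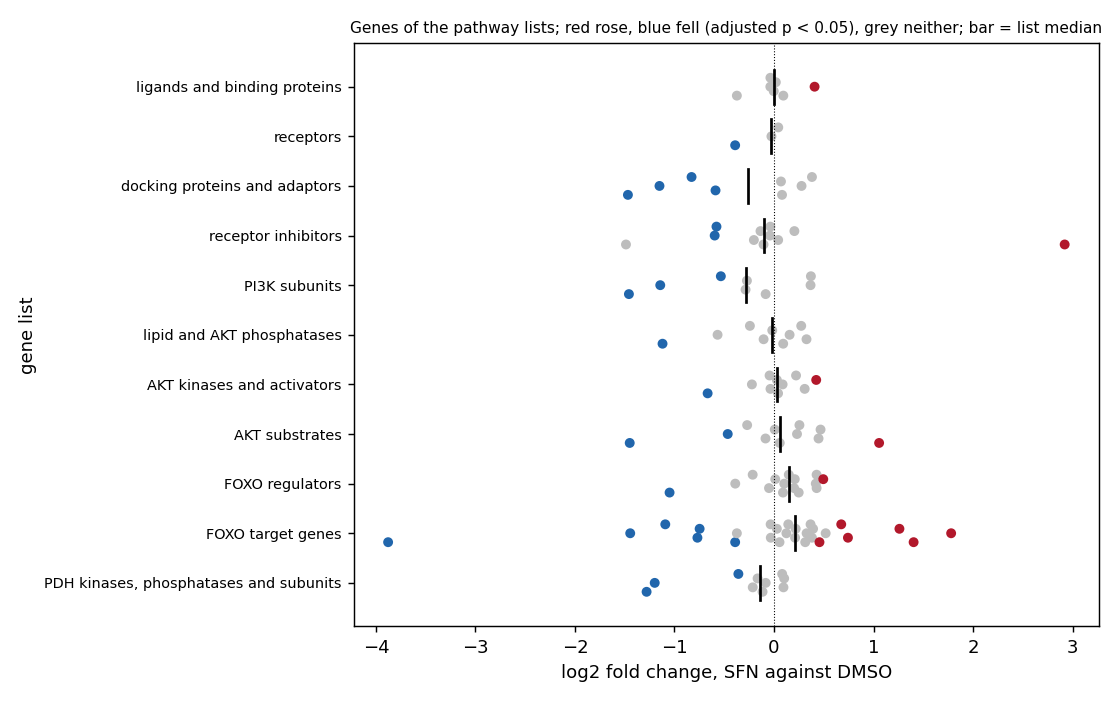
Log2 fold change (SFN against DMSO) of each tested gene in the 11 role lists, with genes that rose in red, genes that fell in blue, the others in grey and a bar at each list median. TRIB3 and CCNG2 are the highest called genes and TXNIP the lowest.

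The genes whose levels followed IRS1 most closely over the 10 libraries, of 10039 at 5 CPM or more, were PHLDB2 (Pearson r = 0.998), GON4L (0.997) and URB2 (0.995). This is a description with no test: the libraries share the difference between groups and the position of DMSO replicate 1. All 3 fell with SFN, PHLDB2 by 1.21, GON4L by 1.17 and URB2 by 1.49 on the log2 scale (edgeR).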

How the data were processed

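RNA from RPE-1 cells (50000 cells per replicate) was made into 3′-end libraries. Per the labels and the study's methods, the authors deposited raw read counts per gene on GRCh38. Their processing notes name FastQC, STAR, featureCounts and edgeR, whereas the methods name a commercial QuantSeq pipeline. Versions, annotation release, strand setting and use of molecular identifiers are not given in the sources used here. CPM was not scaled by transcript length, and levels are not compared between genes. The ratio of IRS2 to IRS1 counts is compared only between libraries.

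Counts were filtered with filterByExpr, scaled by TMM and fitted with edgeR 4.0.16 (quasi-likelihood, R 4.3.3) over 5 DMSO and 5 SFN samples, with Benjamini-Hochberg adjustment over 13378 genes. The SE is the log2 fold change divided by the root of F. The scripts were tested on simulated data. Alternatives were DESeq2 1.42.0 (its size factors and Wald test), upper-quartile scaling, limma 3.58.1 voom after quantile normalization, no filter, a replicate block and leaving out each library. A voom fit with sample quality weights was added after seeing the data.

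The members and lists were chosen with earlier results of these data known. Genes named from each list were the members and up to 4 called genes of lowest p, plus 3 genes most like IRS1. A further 12 (HBP1, CDKN1A, GADD45A, GABARAPL1, CITED2, SESN1, BCL2L11, PIK3CA, AKT2, PDK1, PDK2 and IGF2R) were chosen after their values were seen. The values of some other list genes are not reported here. Gene positions are from GENCODE 44. Markers without a row were not analysed here.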

Additional observations from a re-analysis of the deposited data

Results flagged for a closer look

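Within each group of 5 libraries, 98 groups were examined for a library whose gap to its nearest neighbour was over 0.71 of the group's range. Chance flags about 1 in 20 groups, or about 5 here, if groups are chosen without regard to their values. Some were not: PHLDB2, GON4L and URB2 were picked for following IRS1, and GADD45A, AKT2 and IGF2R after their values were seen. A library stood apart in 20, and in 17 of them it was DMSO replicate 1. Among the members it was DMSO replicate 1 for FOXO3 (gap 0.872 of the range), IRS2 (0.854), IGF1R (0.850), IRS1 (0.799) and AKT1 (0.730). Among the other named genes it was the same library for GADD45A (0.917), PHLDB2 (0.917), AKT2 (0.904), IGF2R (0.891), URB2 (0.882), DOK4 (0.859), PDP1 (0.854), GON4L (0.748), TRIB1 (0.739) and PHLPP2 (0.723). It also stood apart in its TMM factor (0.907) and its mean Spearman correlation with the other DMSO libraries (0.933). SFN replicate 5 stood apart for PDPR (0.758), TRIB1 (0.746) and HBP1 (0.718).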

How the results depend on the processing

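FOXO1, IRS1 and PIK3R1 were called lower in all 17 alternatives, FOXO3 in 12 and INSR in 9. IRS2 was called in 2, AKT1 in 1, and FOXO4 and IGF1R in none. The cause of each change below was not tested. Leaving out each library in turn, the log2 fold change ranged from -0.53 to -0.35 for FOXO3, from -0.43 to -0.33 for INSR, from 0.29 to 0.64 for IRS2 and from -0.21 to 0.040 for IGF1R. The number of members called ranged from 3 to 6 (3 without DMSO replicate 5, SFN replicate 3 or SFN replicate 4), those called lower from 3 to 5, all genes called from 2383 to 6251 (6251 without DMSO replicate 1, 3076 with it), pathway genes called higher from 8 to 25 and lower from 13 to 28. INSR was not called with quantile normalization (-0.24) or with no filter (-0.402), and IGF1R turned to 0.026 with quantile normalization. With no filter 6 pathway genes were called higher. With sample quality weights, chosen after seeing the data, IRS2 (0.68) and AKT1 (0.15) were called, as were 7915 genes in all and 33 pathway genes higher and 32 lower. Among genes named after their values were seen, 2 that were never called turned sign: PDK2 (-0.10 with weights, -0.018 to 0.19 leaving out a library) and IGF2R (-0.000852 with quantile normalization, -0.18 with weights, -0.18 to 0.14). Over the 37 named genes beyond the members, 541 values kept direction and call, 78 lost the call, 4 gained it and 6 turned sign.

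The study names repeated measures without saying which libraries they join. Deviations of same-numbered libraries from their group means correlated at -0.27 to 0.48 over 5 pairs, and only 2 samples matched their own number best. The DMSO mean includes DMSO replicate 1, which correlated at 0.48 with SFN replicate 2 and -0.62 with SFN replicate 5. DMSO replicates 2 to 5 each had the opposite signs there, so this check cannot decide whether libraries were paired. With the replicate block INSR was at -0.38 (edgeR adjusted p = 0.0831) and IGF1R at 0.029, and no other member changed its call. Depth limits FOXO1 and PDK4 most.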
